A study of Mus musculus with 6 samples.

Results

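The 10 genes described here are regulators of apoptosis of the BCL-2 family: Bcl2, Bcl2l1, Mcl1, Bax, Bak1, Bad, Bid, Bbc3, Pmaip1 and Bcl2l11. They were chosen by gene symbol, and all 10 were found among the 24346 symbols of the tables. RNA sequencing covered 6 libraries of 4T1, an established line of mouse breast cancer cells that is used as a model of metastasis. The libraries formed 3 groups of 2. The group labelled WT was mock transfected, and the groups labelled shRNA1 and shRNA3 were 4T1 cells in which the long noncoding RNA AU021063 was knocked down, each by its own short hairpin. The labels name no group with a hairpin that lacks a target, so transfection with a hairpin and loss of AU021063 cannot be told apart. They give neither the vector and promoter of the hairpins nor the number of clones. Whether the libraries of a group are separate cultures is not stated either, and p-values then reflect only the spread among these libraries, possibly a technical one.

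Proteins of the BCL-2 family decide whether the outer membrane of the mitochondrion stays closed. The guardians BCL-2, BCL-XL (gene Bcl2l1) and MCL-1 hold the pore-forming effectors BAX and BAK (gene Bak1) in check. The BH3-only proteins BIM (gene Bcl2l11), BID, BAD, PUMA (gene Bbc3) and NOXA (gene Pmaip1) carry stress signals to them, either by occupying the guardians or by activating the effectors. Once the membrane is permeable, cytochrome c leaves the mitochondrion and caspases are activated. Much of this control acts on proteins, by phosphorylation, cleavage and degradation, which RNA levels do not show.

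Expression is taken to be in FPKM, fragments per length of transcript and per mapped fragments of a library. The unit is not written with the values, so comparisons of levels between genes rest on this reading. Library sums lay between 560862 and 604022 FPKM. The level of AU021063 was 1.82 and 1.67 in WT libraries, 1.045 and 0.572 in shRNA1 libraries, and 0.785 and 0 FPKM in shRNA3 libraries. All 4 knockdown libraries thus lay below WT, at a mean of 34.4% of it. The mean of AU021063 over the 6 libraries was under the filter of 1 FPKM used below, so no test is given for its knockdown. Its value of 0 with shRNA3 can also be an estimate that failed. The keratin genes Krt8 and Krt18 of simple epithelia were abundant (428 ± 9.40 and 505 ± 14.2 FPKM in WT, mean ± SD, n = 2), whereas the epithelial markers Epcam (2.04 to 5.14 FPKM over the 6 libraries) and Cdh1 (1.22 to 1.83 FPKM) were low and Cldn7 was near 0. The 8 epithelial markers summed to 941 to 973 FPKM in WT, 1031 to 1100 with shRNA1 and 742 to 746 with shRNA3. Of 8 leukocyte markers 4 were at 0 in all libraries, Ptprc and Itgam among them. Cd68 alone of these reached 1 FPKM, and the list summed to 6.73 to 6.76 FPKM in WT, 16.0 to 18.5 with shRNA1 and 27.7 to 28.1 with shRNA3. Endothelial markers summed to at most 0.283 FPKM in any library. Fibroblast markers summed to 70.0 to 70.9 FPKM in WT and 59.8 to 63.7 in the knockdown libraries, nearly all of it Pdgfra and Pdgfrb, with Col3a1 and Thy1 at 0 in every library. The part of these shifts in the results below was not tested, and in such bulk samples fewer cells of a kind and less RNA per cell cannot be told apart.

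Of the 10 genes 9 passed the filter of a mean of at least 1 FPKM. Pmaip1 was listed at 0 in all 6 libraries, as were 35.4% of all symbols, and no fold or test is given for it. An exact 0 in a table without counts can also be an estimate that failed. The other 9 genes were all well expressed, from 11.8 ± 1.03 FPKM for Bbc3 to 97.9 ± 1.85 for Bax in WT.

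**Figure D1:**
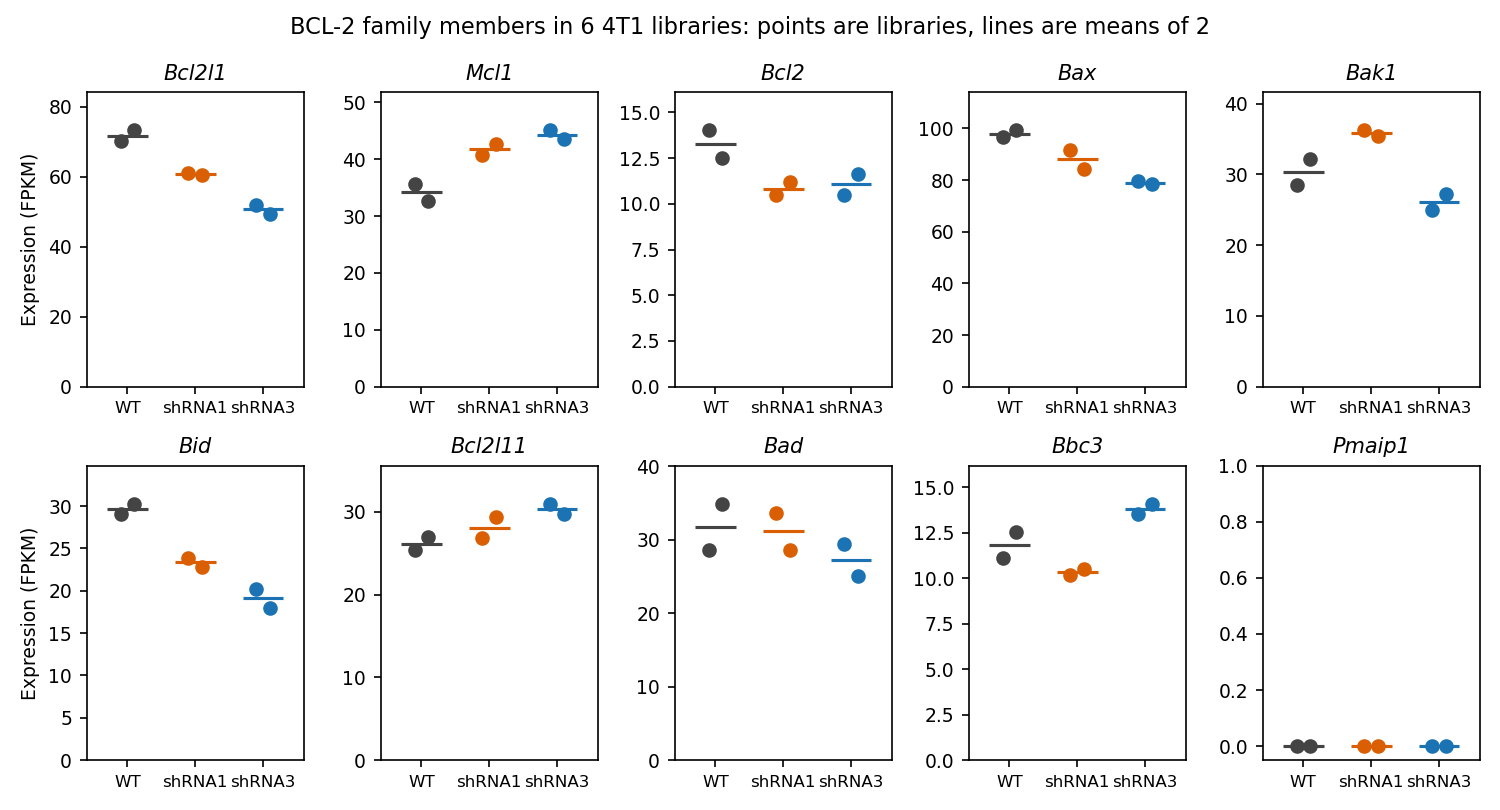
Expression in FPKM (y axis, from 0, its own scale in each panel) of the 10 BCL-2 family genes in WT, shRNA1 and shRNA3 libraries; points are single libraries and lines are means of 2. Bcl2l1, Bcl2, Bax and Bid lie lower in all 4 knockdown libraries than in WT, Mcl1 lies higher, Bak1 and Bbc3 lie on opposite sides of WT in the hairpin groups, and Pmaip1 is at 0.

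With the mean of both hairpins set against WT, Bid, Bcl2l1, Bcl2 and Bax fell and Mcl1 and Bcl2l11 rose, while Bak1, Bbc3 and Bad did not pass the test. Thus 6 of 9 genes passed (limma, Benjamini-Hochberg adjusted p under 0.05 over 11079 genes), against 50.0% of all genes tested. The 4 falls and 2 rises compare with 25.9% of all genes that fell and 24.1% that rose. With so large a background the number of calls does not set the family apart. The changes were also small, none larger in size than the -0.47 of Bid. The median size of the log2 change was 0.23 for the 9 genes, called or not, and 0.17 for all genes tested. For all genes called it was 0.30, which is not a like set to the 9 genes. All log2 changes are differences of log2(FPKM + 1), and folds are ratios of group means in FPKM. In 5 of the 9 genes the 4 knockdown libraries did not overlap with WT, as in 47.7% of all genes. When each library was rescaled to the same total, 34.3% of called genes were higher, against 48.2% on the deposited values. The median of all genes was -0.01 on the deposited values and -0.07 after that rescaling.

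By hairpin, 6 of 9 passed with shRNA1, against 36.0% of all genes. Of these 2 rose and 4 fell (17.6% and 18.4% of all genes), and 7 of 9 did not overlap with WT (69.0%). With shRNA3 8 of 9 passed, against 55.2%, of which 3 rose and 5 fell (27.4% and 27.8%), and 8 did not overlap (78.7%). Both comparisons use the same WT libraries. Called with both were 6 genes. Of these, Bcl2l1, Bcl2, Mcl1, Bax and Bid went the same way, as did 24.3% of all genes, and Bak1 went opposite ways, as did 2.04%. In the direct comparison of shRNA3 with shRNA1 5 of 9 passed, against 42.5%, with 1 higher and 4 lower with shRNA3 (22.0% and 20.5%). No overlap between the hairpin groups was seen for 7 of 9 genes (73.2%).

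**Figure D2:**
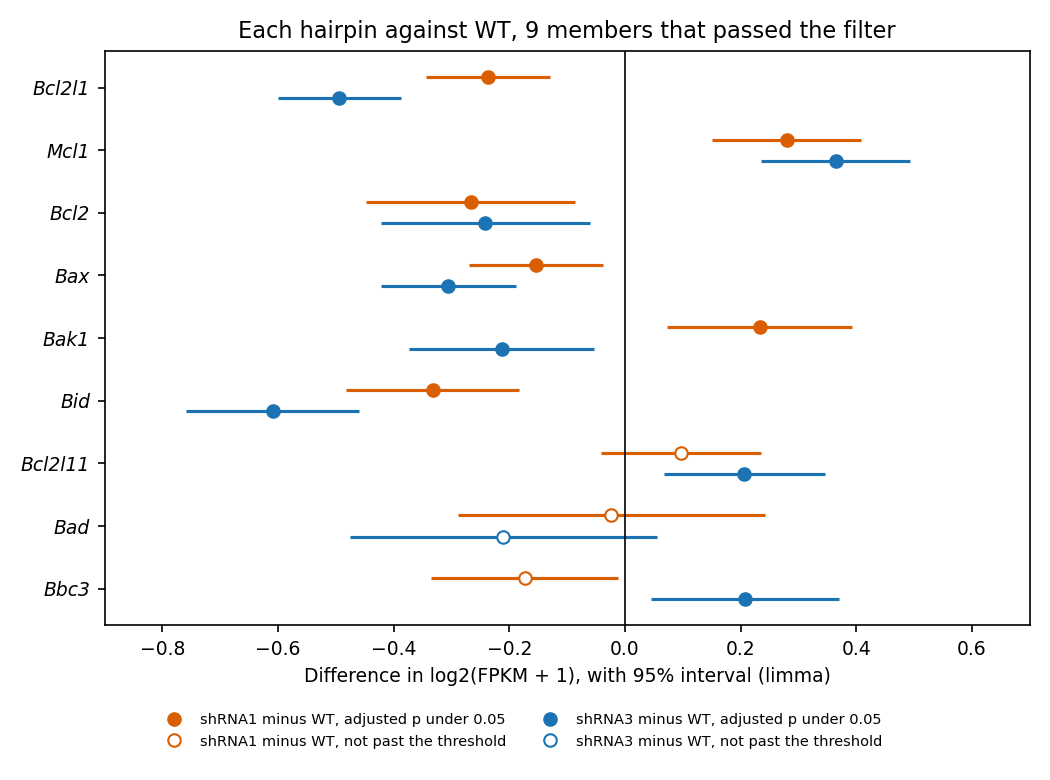
Differences in log2(FPKM + 1) of shRNA1 (orange) and shRNA3 (blue) from WT, with 95% intervals from limma, for the 9 genes that passed the filter; filled points passed an adjusted p of 0.05. Bcl2l1, Bcl2, Bax and Bid lie left of 0 and Mcl1 right of 0 with both hairpins, and Bak1 is filled on either side, at 0.23 with shRNA1 and -0.21 with shRNA3.

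Among the guardians, Bcl2l1 and Bcl2 fell and Mcl1 rose in the knockdown libraries. Bcl2l1, on chromosome 2 (mm10, 152780668 to 152831728, minus strand), is spliced into a long form that protects cells and a short form that promotes death, and the gene-level values do not separate them. It read 70.2 and 73.2 in WT libraries, 61.0 and 60.4 in shRNA1 libraries, and 51.9 and 49.4 FPKM in shRNA3 libraries. The 3 groups did not overlap, with WT highest and shRNA3 lowest. Expression of Bcl2l1 was 1.18-fold lower with shRNA1 (log2 change -0.24 ± 0.05 SE, limma adjusted p = 0.00599) and 1.42-fold lower with shRNA3 (-0.49 ± 0.05, adjusted p = 8.79e-05). The difference between the hairpins passed as well (-0.26, adjusted p = 0.00343). When shRNA1 and shRNA3 libraries were pooled into 1 group of 4, which turns this difference into spread, the joint change of -0.37 no longer passed (adjusted p = 0.0599, against 2.26e-04 with the hairpins kept apart; range over all settings 3.86e-05 to 0.0599).

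Mcl1 encodes a guardian whose mRNA and protein both turn over within a short time (chromosome 3, 95658788 to 95663176, plus strand). It rose from 35.7 and 32.7 in WT libraries to 40.8 and 42.6 in shRNA1 libraries and 45.1 and 43.5 FPKM in shRNA3 libraries. All 4 knockdown libraries were above both WT libraries. The change was 1.22-fold with shRNA1 (log2 0.28 ± 0.06, limma adjusted p = 0.00658) and 1.29-fold with shRNA3 (0.36 ± 0.06, adjusted p = 9.65e-04), and over both hairpins (0.32, adjusted p = 0.00107) it passed under all 17 settings tried (adjusted p 7.40e-04 to 0.0299). The difference between the hairpins was 0.08, with a 95% interval of -0.04 to 0.21.

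Bcl2, the founding member of the family (chromosome 1, 106538178 to 106714274, minus strand), was the lowest of the guardians. It read 14.0 and 12.5 in WT libraries, 10.5 and 11.2 in shRNA1 libraries, and 10.5 and 11.6 FPKM in shRNA3 libraries, so both hairpin groups lay below WT and overlapped with each other. It fell over both hairpins (log2 change -0.25 ± 0.07, limma adjusted p = 0.0155), by 1.22-fold with shRNA1 (adjusted p = 0.0313) and 1.20-fold with shRNA3 (adjusted p = 0.0309). This call of Bcl2 ended without WT replicate 1, where the change was -0.18 (adjusted p = 0.138; range over all settings 0.00748 to 0.138), and with the knockdown libraries as 1 group (0.0784). Without WT replicate 1 the calls of Bcl2 by hairpin ended too (adjusted p = 0.174 and 0.181). The same held for shRNA1 without its replicate 1 (0.149) or 2 (0.0622), and for shRNA3 without its replicate 1 (0.170). Without a filter on low values both calls ended as well (0.0772 and 0.0726). The difference between the hairpins was 0.03, with a 95% interval of -0.16 to 0.21.

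Summed over Bcl2, Bcl2l1 and Mcl1, guardian expression was 119 ± 1.02 FPKM in WT, 113 ± 1.40 with shRNA1 and 106 ± 2.03 with shRNA3 (mean ± SD, n = 2). Mcl1 made up 29.8% and 27.6% of that sum in the WT libraries, 36.4% and 37.3% with shRNA1, and 41.9% and 41.6% with shRNA3. Bcl2l1 went from 58.6% and 61.8% in WT libraries to 54.3% and 52.9% in shRNA1 and 48.3% and 47.3% in shRNA3 libraries. The ratio of Bcl2l1 to Mcl1 was 2.10 ± 0.192 in WT libraries, 1.46 ± 0.0535 in shRNA1 and 1.14 ± 0.0108 in shRNA3 libraries, with no overlap between groups. No test is given for sums and ratios, since their members were chosen with results known.

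**Figure D3:**
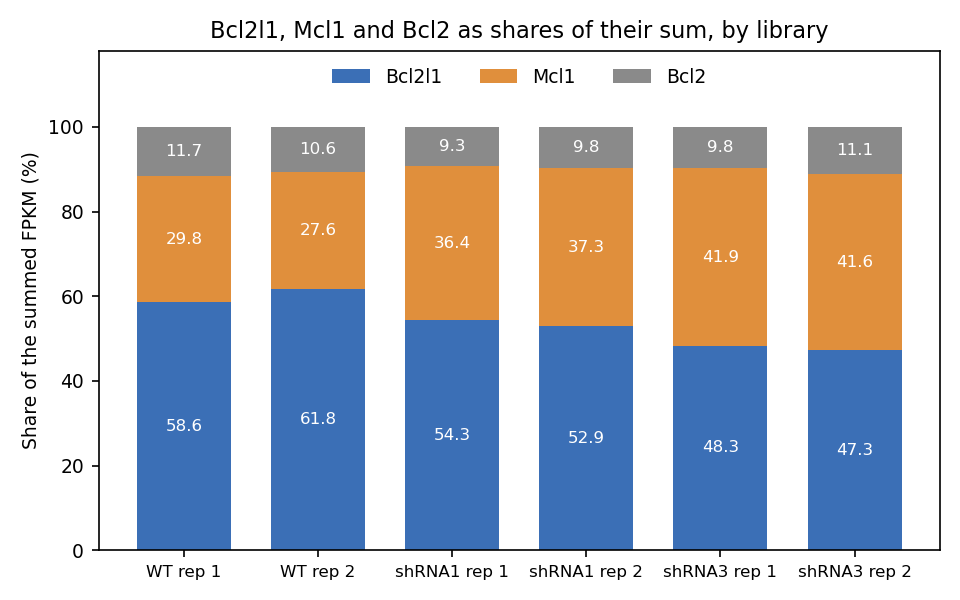
Stacked bars of the share (%) that Bcl2l1, Mcl1 and Bcl2 each took of their summed FPKM in each of the 6 libraries. The share of Mcl1 goes from 27.6% to 29.8% in WT to 41.6% to 41.9% with shRNA3, while that of Bcl2 stays between 9.32% and 11.7%.

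Of the effector genes, Bax fell over both hairpins and Bak1 did not pass. Bax (chromosome 7, 45461697 to 45466898, minus strand) had the highest expression of the family in all 3 groups. It read 96.6 and 99.2 in WT libraries, 91.8 and 84.2 in shRNA1 libraries, and 79.5 and 78.7 FPKM in shRNA3 libraries. All 4 knockdown libraries lay below WT, and the shRNA3 libraries lay lowest. Of its exonic bases 12.2% are shared with Gm45808 on the same strand, a gene not analysed here. Bax fell over both hairpins (log2 change -0.23 ± 0.04, limma adjusted p = 0.00334), a call that ended with the knockdown libraries fitted as 1 group (adjusted p = 0.0964; range over all settings 4.84e-04 to 0.0964). It fell 1.24-fold with shRNA3 (-0.31, adjusted p = 0.00139). The 1.11-fold decrease with shRNA1 was close to the threshold (-0.15, adjusted p = 0.0452; range 0.00973 to 0.235). It was lost on leaving out any library but shRNA1 replicate 1: WT replicate 1 (0.0951) or 2 (0.166), shRNA1 replicate 2 (0.235), shRNA3 replicate 1 (0.0686) or 2 (0.0693). It was also lost without a filter (0.0744), without a trend in the prior variance (0.0955) and with only the groups compared in the fit (0.0687). The difference of Bax between the hairpins (-0.15, adjusted p = 0.0419; range 0.0240 to 0.230) ended without WT replicate 1 (0.0561) or 2 (0.0558), shRNA1 replicate 1 (0.230), and shRNA3 replicate 1 (0.113) or 2 (0.147). It ended too without a filter (0.0678), after quantile normalization (0.0612), without the trend (0.0891) and with only the groups compared (0.0554).

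Bak1 (chromosome 17, 27019810 to 27029009, minus strand) had the largest difference between the hairpins among the 9 genes. It read 28.5 and 32.2 in WT libraries, 36.2 and 35.4 in shRNA1 libraries, and 24.9 and 27.2 FPKM in shRNA3 libraries. Every shRNA1 library was above and every shRNA3 library below both WT libraries. The direct comparison gave a 1.38-fold lower level with shRNA3 than with shRNA1 (log2 change -0.45 ± 0.07, limma adjusted p = 0.00180), which passed under all 17 settings (0.00115 to 0.0166). Each side on its own was weaker. The rise with shRNA1 (0.23, adjusted p = 0.0328; range 0.0194 to 0.177) ended without WT replicate 1 (0.15, adjusted p = 0.177), shRNA1 replicate 1 (0.127) or 2 (0.0908), and with libraries rescaled to the same total (0.0855). The fall with shRNA3 (-0.21, adjusted p = 0.0309; range 0.00897 to 0.182) ended without WT replicate 2 (-0.13, adjusted p = 0.182) and shRNA3 replicate 1 (0.174). Both calls of Bak1 against WT ended without a filter (0.0770 with shRNA1 and 0.0698 with shRNA3) and without a trend in the prior variance (0.0607 and 0.0557). Averaged over the hairpins the change was 0.01, with a 95% interval of -0.13 to 0.15. Of the exonic bases of Bak1, 25.5% are shared with Ggnbp1 on the opposite strand, which was at 1.28 to 2.83 FPKM. The libraries were made with a stranded kit, but no source used here says whether the quantification used strand.

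The ratio of Bax to Bak1 was 3.24 ± 0.221 in WT libraries, 2.46 ± 0.111 in shRNA1 and 3.04 ± 0.210 in shRNA3 libraries. Effector expression summed to 128 ± 4.50, 124 ± 5.96 and 105 ± 1.03 FPKM in that order. Guardians over effectors came to 0.930 ± 0.0406 in WT libraries, 0.916 ± 0.0554 in shRNA1 and 1.01 ± 0.0292 in shRNA3 libraries. Both shRNA3 libraries (1.03 and 0.988) lay above the WT range of 0.901 to 0.958, and of the shRNA1 libraries (0.877 and 0.955) 1 lay below it and 1 inside. The widely used ratio of Bax to Bcl2 did not separate the groups. It was 6.89 and 7.94 in WT libraries, 8.77 and 7.51 in shRNA1 and 7.58 and 6.76 in shRNA3 libraries. The ratio of Bax to Bcl2l1 was 1.38 and 1.36 in WT and higher in all 4 knockdown libraries, from 1.39 to 1.59.

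Of the BH3-only genes Bid changed most. BID is cut by caspase-8 after death receptor signalling, and the cut form moves to mitochondria. Bid (chromosome 6, 120891930 to 120916853, minus strand) read 29.1 and 30.2 in WT libraries, 23.9 and 22.8 in shRNA1 libraries, and 20.2 and 18.0 FPKM in shRNA3 libraries. The groups stood apart, in the order WT, shRNA1, shRNA3. Its decrease was 1.27-fold with shRNA1 (log2 change -0.33 ± 0.06, limma adjusted p = 0.00594) and 1.55-fold with shRNA3 (-0.61 ± 0.06, adjusted p = 1.61e-04). Over both hairpins (-0.47, adjusted p = 3.50e-04) Bid passed under all 17 settings (4.91e-05 to 0.0422). The difference between the hairpins (-0.28, adjusted p = 0.0105; range 0.00478 to 0.0665) ended without shRNA1 replicate 1 (-0.24, adjusted p = 0.0618) or shRNA3 replicate 2 (-0.20, adjusted p = 0.0665). Of the exonic bases of Bid, 17.7% are shared with Bcl2l13 on the opposite strand, a gene at 7.61 to 8.59 FPKM in these libraries with a log2 change of 0.03 (limma adjusted p = 0.750).

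Bcl2l11, the gene of BIM, which can bind all guardians and activate the effectors, moved the other way (chromosome 2, 128126038 to 128162547, plus strand). It read 25.4 and 26.9 in WT libraries, 26.8 and 29.3 in shRNA1 libraries, and 31.0 and 29.7 FPKM in shRNA3 libraries. The shRNA1 libraries overlapped with WT, and the shRNA3 libraries lay above both other groups. The rise with shRNA3 was 1.16-fold (log2 change 0.21 ± 0.06, limma adjusted p = 0.0196; range over settings 0.0161 to 0.106), and ended without WT replicate 1 (0.106), without shRNA3 replicate 1 (0.103) and with libraries rescaled to the same total (0.0999). With shRNA1 the change was 0.10, with a 95% interval of -0.04 to 0.23. The joint call of Bcl2l11 (0.15, adjusted p = 0.0410; range 0.0255 to 0.234) was the weakest of the family, made in 7 of 17 settings. Among the settings that ended it were those without WT replicate 1 (0.234) or 2 (0.0636), shRNA1 replicate 2 (0.0967), and shRNA3 replicate 1 (0.102) or 2 (0.0609), with the knockdown libraries as 1 group (0.208), with libraries rescaled to the same total (0.213), without a filter (0.0716) and without the trend (0.0671). The ratio of Bcl2l11 to Bid went from 0.882 ± 0.0105 in WT libraries to 1.20 ± 0.116 in shRNA1 and 1.59 ± 0.0845 in shRNA3 libraries.

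Bbc3 encodes PUMA, a BH3-only protein known as a p53 target (chromosome 7, 16308393 to 16318205, plus strand). It read 11.1 and 12.6 in WT libraries, 10.2 and 10.5 in shRNA1 libraries, and 13.5 and 14.1 FPKM in shRNA3 libraries. The shRNA1 libraries lay below and the shRNA3 libraries above WT. The difference between the hairpins was 1.33-fold (log2 change 0.38 ± 0.07, limma adjusted p = 0.00381) and passed under all 17 settings (0.00267 to 0.0300). Against WT, shRNA1 gave -0.17 (adjusted p = 0.0891), with a 95% interval of -0.34 to -0.01 before adjustment. It passed with libraries rescaled to the same total (-0.23, adjusted p = 0.0409) and without WT replicate 1 (-0.26, adjusted p = 0.0485). The rise of 0.21 with shRNA3 (adjusted p = 0.0356; range 0.0177 to 0.212) ended without WT replicate 1 (0.212), shRNA1 replicate 1 (0.0510) or 2 (0.0514), and shRNA3 replicate 1 (0.0753) or 2 (0.150), with libraries rescaled to the same total (0.144), without a filter (0.0711) and with only the groups compared (0.0514). Over both hairpins the change of Bbc3 was 0.02, with a 95% interval of -0.12 to 0.16.

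Bad, whose protein is held inactive by survival kinases (chromosome 19, 6941861 to 6951899, plus strand), varied within each group. It read 28.6 and 34.9 in WT libraries, 33.7 and 28.6 in shRNA1 libraries, and 29.4 and 25.1 FPKM in shRNA3 libraries. The 3 groups overlapped. Its change over both hairpins was -0.12, with a 95% interval of -0.35 to 0.11 (limma adjusted p = 0.358), so a fall of the size seen for Bcl2 or Bax lies within the interval. With shRNA3 alone it was -0.21 (adjusted p = 0.153), which passed after rescaling to the same total (adjusted p = 0.0381). Of its exonic bases 20.5% are shared with Gpr137 on the opposite strand, which was at 9.87 to 11.8 FPKM.

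By level, the family kept the order Bax, Bcl2l1 and Mcl1 at the top of each group, with no overlap between these 3. Below them the order changed. In WT, Mcl1, Bad, Bak1 and Bid overlapped as neighbours, from 34.2 down to 29.7 FPKM, followed by Bcl2l11 (26.2 ± 1.05), and Bcl2 and Bbc3 overlapped. With shRNA1, Bak1 (35.8 ± 0.575) stood above Bad, and Bid dropped below Bcl2l11. With shRNA3, Bcl2l11 (30.3 ± 0.864) came next after Mcl1, Bid (19.1 ± 1.56) lay under Bak1, and Bbc3 (13.8 ± 0.394) exceeded Bcl2 (11.1 ± 0.815) with no overlap between them.

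The genes whose pattern over the 6 libraries was nearest to that of Bid, Bcl2l1 and Mcl1, the 3 family genes that changed most, were found by the root mean square difference of the centred log2 values. Nearest to Bid were Cradd (0.0263), Abcf2 (0.0327) and Ykt6 (0.0404). Cradd, an adaptor with a death domain that binds caspase-2, went from 3.40 and 3.52 in WT libraries to 2.50 and 2.50 in shRNA1 libraries and 2.06 and 1.66 FPKM in shRNA3 libraries. Nearest to Bcl2l1 were Slmo2 (0.0189), Homer3 (0.0204) and Xpo5 (0.0221), the last an exporter of miRNA precursors from the nucleus. Asah1 (0.0174), an acid ceramidase, Ccna2 (0.0223), the cyclin A gene, and Kpna3 (0.0242) were nearest to Mcl1. With 11079 genes and 6 libraries, near neighbours of any pattern are to be found.

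Other genes of the apoptosis pathway were taken from lists described by counts and medians, all for both hairpins against WT. For each count below, the shares over all genes tested were 24.1% that rose and 25.9% that fell. The lists are short, and their counts were not tested against these shares. Of 11 other genes of the multi-domain family 4 passed the filter and 0 were called over both hairpins (limma, adjusted p under 0.05; 1 had an unadjusted p under 0.05, and no other tool was run), with a median log2 change of -0.02 against -0.01 for all genes. Bok, an effector-like gene, was at 21.5 ± 0.923 FPKM in WT (-0.13, adjusted p = 0.0612), and the guardian gene Bcl2l2 at 8.55 ± 0.452 (0.12, adjusted p = 0.112). Bok passed with shRNA3 alone (-0.18, adjusted p = 0.0291) and not with shRNA1 (-0.08, adjusted p = 0.316). The difference of Bok between the hairpins did not pass (adjusted p = 0.195). Bcl2a1a, Bcl2a1b, Bcl2a1c, Bcl2a1d and Bcl2l10 were listed at 0 in every library. The Bcl2a1 genes are near-identical copies, so these values are uncertain.

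The largest change among BH3-type genes lay outside the 10. Bnip3, a mitochondrial protein of mitophagy induced by HIF-1, read 93.7 and 84.6 in WT libraries, 246 and 254 in shRNA1 libraries, and 165 and 167 FPKM in shRNA3 libraries. All knockdown libraries lay far above WT, with shRNA1 highest. It rose 2.33-fold over both hairpins (log2 change 1.19, limma adjusted p = 1.54e-06). Its relative Bnip3l rose 1.38-fold, from 94.6 ± 4.06 to 126 ± 4.60 and 134 ± 2.47 FPKM (0.46, adjusted p = 9.79e-05). Becn1, an autophagy gene with a BH3 stretch, fell 1.12-fold (-0.17, adjusted p = 0.0117; range 0.00218 to 0.267), a call that ended without WT replicate 1 (0.0618) or 2 (0.0576). It fell with shRNA3 (-0.29, adjusted p = 0.00161) and was at -0.05 with shRNA1 (adjusted p = 0.454), and the hairpins differed (-0.24, adjusted p = 0.00623). Of the 6 genes of this list 4 passed the filter, of which 2 rose and 1 fell, and the median change was 0.31. Bik, below the filter, read 0.25 and 0.34 in WT libraries, 0.44 and 0.39 in shRNA1 libraries, and 0.79 and 0.75 FPKM in shRNA3 libraries.

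Downstream of the family, 3 of 10 tested genes of the mitochondrion and apoptosome rose and 3 fell (median 0.07). Vdac1, the main channel of the outer membrane, rose 1.56-fold, from 156 ± 0.865 to 233 ± 1.55 and 253 ± 3.38 FPKM (log2 change 0.64, limma adjusted p = 4.93e-06). Cycs, the gene of cytochrome c, was at 20.9 ± 0.319 FPKM in WT, 19.8 ± 0.602 with shRNA1 and 12.5 ± 1.03 with shRNA3. With shRNA3 its change was -0.70 (adjusted p = 8.48e-05) and with shRNA1 -0.07 (adjusted p = 0.417), and the difference between them passed (adjusted p = 2.82e-04). The rises of Apaf1 (1.16-fold) and Casp9 (1.17-fold), the scaffold and the caspase of the apoptosome, had adjusted p of 0.0312 and 0.0357. Apaf1 was lost without WT replicate 1 (0.209), shRNA1 replicate 1 (0.0673) or 2 (0.0622), or shRNA3 replicate 1 (0.0722). Casp9 was lost without WT replicate 1 (0.0645) or 2 (0.207), shRNA1 replicate 2 (0.0905) or shRNA3 replicate 2 (0.0892). Both also ended with libraries rescaled to the same total (0.111 for Apaf1, 0.140 for Casp9) and without a filter (0.0591 and 0.0766). With shRNA1 alone neither Apaf1 (adjusted p = 0.0700) nor Casp9 (0.181) passed, and with shRNA3 both did (0.0466 and 0.0212).

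Caspases and their substrates gave 4 rises and 2 falls among 11 genes (median -0.03). Casp1, an inflammatory caspase, fell from 37.5 and 38.6 in WT libraries to 32.1 ± 1.65 and 30.0 ± 0.747 FPKM with shRNA1 and shRNA3 (log2 change -0.28, limma adjusted p = 0.00151). Casp4 rose 1.20-fold (adjusted p = 0.00631), and lost its call without WT replicate 1 (0.0567). Its change was 0.39 with shRNA3 (adjusted p = 0.00115) and 0.10 with shRNA1 (adjusted p = 0.227), with a difference between the hairpins of 0.29 (adjusted p = 0.00765). The nuclease gene Dffb fell (-0.42, adjusted p = 0.0255; 0.161 without WT replicate 2, 0.0543 without shRNA1 replicate 2 and 0.0628 without shRNA3 replicate 2). Dffa, which encodes the inhibitor of that nuclease, overlapped between groups (0.32, adjusted p = 0.0484; 0.404 without WT replicate 1). Its call held only without WT replicate 2 among the fits that leave out 1 library. With shRNA1 alone neither Dffb (0.146) nor Dffa (0.194) passed, and with shRNA3 both did (0.0148 and 0.0334). Dffb lay near the filter of 1 FPKM, at 1.69 ± 0.322 in WT, 1.18 ± 0.157 with shRNA1 and 0.859 ± 0.214 FPKM with shRNA3.

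Genes of inhibitors of apoptosis rose in 3 of 5 cases with 0 falls (median 0.24). Birc3 (cIAP2), an NF-kB target, rose 1.89-fold, from 8.57 and 8.86 in WT libraries to 14.2 and 13.7 in shRNA1 libraries and 18.5 and 19.4 FPKM in shRNA3 libraries (log2 change 0.83, limma adjusted p = 1.35e-05). Birc2 (cIAP1) rose 1.47-fold (0.51, adjusted p = 8.09e-04), with changes of 0.33 with shRNA1 and 0.69 with shRNA3 that differed (adjusted p = 0.00945), and Birc5 (survivin), a gene also of mitosis, 1.18-fold (0.24, adjusted p = 0.00262). Xiap was at 18.8 to 23.6 FPKM and did not pass (-0.06). In the list of death receptor genes 2 of 7 rose and 2 fell (median 0.03). Tnfrsf10b, the TRAIL receptor, which stands in the p53 target list too, rose 1.48-fold (0.53, adjusted p = 6.94e-05), while Ripk1, a kinase of the TNF receptor complex, fell from 9.90 ± 0.467 to 7.05 ± 0.0191 and 4.69 ± 0.0566 FPKM (-0.69, adjusted p = 6.79e-05). Fadd, the adaptor between death receptors and caspase-8, fell 1.41-fold (-0.43, adjusted p = 0.00486). The fall of Fadd passed with shRNA3 (-0.64, adjusted p = 0.00109), the value with shRNA1 was -0.21 (adjusted p = 0.147), and the hairpins differed (-0.44, adjusted p = 0.0102). Fas was at 23.0 ± 0.0460 FPKM in WT, 23.6 ± 1.36 with shRNA1 and 40.9 ± 2.67 with shRNA3. Its call over both hairpins (adjusted p = 5.08e-04) came with a difference between the hairpins of 0.77 (adjusted p = 9.74e-05).

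**Figure D4:**
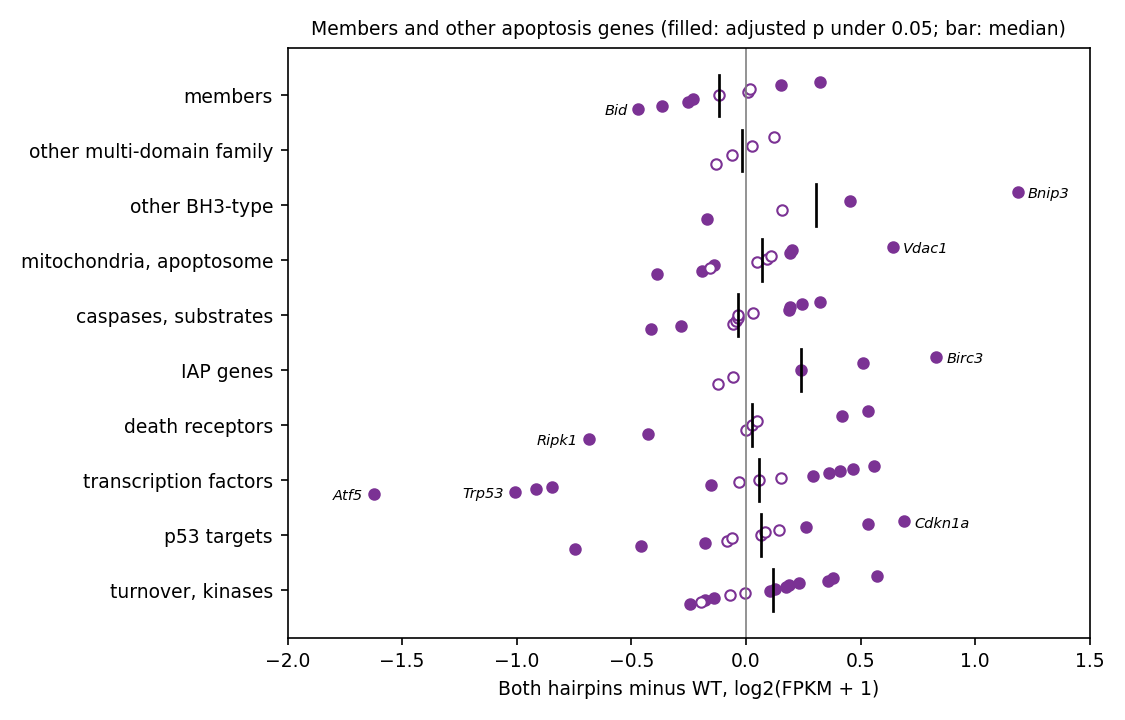
Differences in log2(FPKM + 1) of both hairpins from WT (x axis) for tested genes of the BCL-2 family list and of 9 other apoptosis lists (y axis); filled points passed an adjusted p of 0.05 and black bars are list medians. The 9 tested family genes lie between -0.47 (Bid) and 0.32 (Mcl1), while Bnip3 (1.19), Birc3 (0.83), Trp53 (-1.01) and Atf5 (-1.62) lie outside that range.

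Among transcription factors known to act on the family 5 of 13 rose and 5 fell (median 0.06). Those that rose were Trp63 (log2 change 0.56, limma adjusted p = 0.00257), Foxo3 (0.47), Hif1a (0.41), Stat3 (0.36) and E2f1 (0.29). Trp63 was at 0.22 with shRNA1 (adjusted p = 0.171) and 0.89 with shRNA3 (difference adjusted p = 0.00278). E2f1 was at 0.47 with shRNA1 and 0.12 with shRNA3 (adjusted p = 0.0736, difference adjusted p = 0.00129). Nfkb1 fell (-0.15, adjusted p = 0.0157), as did the genes below. Trp53, the gene of p53, for which Bax, Bbc3 and Pmaip1 are textbook targets, fell from 50.9 and 54.3 in WT libraries to 23.9 and 22.7 in shRNA1 libraries and 28.2 and 28.0 FPKM in shRNA3 libraries, a 2.04-fold decrease over both (log2 change -1.01, limma adjusted p = 3.04e-06). All knockdown libraries were far below WT. This value is of the transcript only. Whether this line makes working p53 is not stated in the labels, and p53 activity was not measured. Atf4 fell 1.89-fold, from 386 ± 1.67 to 207 ± 2.29 and 200.2 ± 7.14 FPKM. Atf5 fell 2.93-fold over both hairpins (-1.62, adjusted p = 1.01e-06). The change of Atf5 was -2.16 with shRNA1 and -1.08 with shRNA3 (difference adjusted p = 3.10e-05). Ddit3 (CHOP), an inducer of Bcl2l11 and Bbc3 under endoplasmic reticulum stress, was at 104 ± 1.90 FPKM in WT, 33.0 ± 2.35 with shRNA1 and 98.7 ± 7.68 with shRNA3, and the difference between the hairpins was 1.55 (adjusted p = 8.43e-06). Of p53 target genes 3 of 11 rose and 3 fell (median 0.07). Cdkn1a (p21) rose 1.70-fold (0.69, adjusted p = 5.78e-05), its change being 1.05 on the log2 scale with shRNA1 and 0.33 with shRNA3 (difference adjusted p = 1.62e-04). Sesn2, which ATF4 also induces, fell 1.77-fold (-0.75, adjusted p = 3.03e-05). Aen, a nuclease gene, fell 1.46-fold (-0.46, adjusted p = 0.00357). Aen passed with shRNA3 (-0.72, adjusted p = 6.58e-04), was at -0.20 with shRNA1 (adjusted p = 0.167), and differed between the hairpins (-0.52, adjusted p = 0.00501).

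Of 14 genes for turnover and phosphorylation of BCL-2 proteins 8 rose and 3 fell (median 0.12). The kinase genes Pim3 and Pim1, whose products phosphorylate BAD, rose 1.53-fold and 1.31-fold, Pim3 from 38.6 ± 0.312 to 47.0 ± 3.19 and 71.2 ± 2.45 FPKM (log2 change 0.57, limma adjusted p = 6.79e-05). Fbxo10, a ubiquitin ligase subunit for BCL-2, rose 1.34-fold (0.36, adjusted p = 0.00199), with a larger change with shRNA1 (0.51) than with shRNA3 (0.20, difference adjusted p = 0.00945). Mapk8, the gene of JNK1, fell 1.23-fold (-0.24, adjusted p = 0.0180; range 0.00747 to 0.138), a call that ended without WT replicate 1 (0.126). With shRNA1 alone Mapk8 did not pass (-0.15, adjusted p = 0.174), and with shRNA3 it did (-0.34, adjusted p = 0.00702), while the difference between the hairpins had an adjusted p of 0.0829. With the 4 knockdown libraries fitted as 1 group, the joint calls of Aen, Apaf1, Becn1, Birc2, Birc5, Casp4, Casp9, Cdkn1a, Cycs, Ddit3, Dffa, Dffb, Fadd, Fas, Fbxo10, Mapk8 and Pim3 ended, with adjusted p from 0.0650 for Birc2 to 0.308 for Fas.

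Trp53 and Atf4 fell in these libraries and Hif1a, Stat3 and Foxo3 rose, the last 3 named after their values were seen. The 250 bases before each RefSeq start site (GRCm38.p6) were searched on both strands for short motifs of such factors. Windows of 9 of the 10 genes were searched, 15 windows in all. Pmaip1 was left out of this search, so the counts of windows do not cover it. The p53 half-site was found in 1 of the 15 windows, that of Bax, against 7.13% of 32851 promoters. The FOXO motif GTAAACA was in 1 window of Bcl2l11 and 1 of Bbc3, against 3.17%. The HIF core was in 2 windows as ACGTG (16.6% of promoters) and in 7 as GCGTG (28.2%). Neither TGATGNAA, an element of ATF4 with C/EBP (3.45%), nor the STAT motif TTCNNNGAA (7.02%) was in any of them. Shown are the windows of Bax (chr7:45466899-45467148, minus strand) and Bcl2l11 (chr2:128125788-128126037, plus strand), an effector that fell and a BH3-only gene that was higher with shRNA3. Both hold matches, while the other window of Bcl2l11 held none of these motifs. Windows of other genes with matches, that of Bbc3 with the FOXO motif among them, are not shown. Capitals mark the p53 half-site and then an ACGTG match within CACGTG in Bax, and in Bcl2l11 the FOXO motif overlapping with a GCGTG match, followed by 2 more GCGTG matches on the minus strand (printed as CACGC).
Bax: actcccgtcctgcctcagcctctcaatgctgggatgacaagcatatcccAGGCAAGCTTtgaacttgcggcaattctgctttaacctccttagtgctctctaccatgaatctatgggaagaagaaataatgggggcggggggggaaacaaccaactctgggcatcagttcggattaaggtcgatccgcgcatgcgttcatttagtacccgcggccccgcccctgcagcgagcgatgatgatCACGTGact
Bcl2l11: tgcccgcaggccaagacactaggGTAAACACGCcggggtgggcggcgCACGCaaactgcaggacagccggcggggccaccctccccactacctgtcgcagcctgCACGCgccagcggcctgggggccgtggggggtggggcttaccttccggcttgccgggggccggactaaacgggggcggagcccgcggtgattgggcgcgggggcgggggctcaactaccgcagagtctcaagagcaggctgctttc
The p53 half-site of Bax lies 201 to 192 bases before the start, and the FOXO motif of Bcl2l11 lies 227 to 221 bases before it. These matches describe the letters of the windows, and no binding was measured.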

How the data were processed

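Libraries of 4T1 total RNA were made with a stranded mRNA kit, per the labels' protocols. The authors deposited 1 table per library with 24346 gene symbols and 1 value each. The unit of these deposited values is not written there and was taken to be FPKM: Cufflinks 2.2.1 stands in the submitters' processing notes (beside TopHat2 2.0.13, Bowtie2 2.2.3, SAMtools 0.1.19 and mm10), and the values are not whole and have no common total. No source used here gives the annotation, the strand setting or the depth in reads.

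Groups came from sample titles. The 11079 genes whose mean reached 1 FPKM were fitted as log2(FPKM + 1) with limma 3.58.1 (R 4.3.3), a means model of 3 groups with a trend in the prior variance (3 residual and 4.96 prior degrees of freedom), two-sided, Benjamini-Hochberg adjusted p under 0.05. A count model was not used because there are no counts. The replicate number was not a block. Coordinates and exon overlaps are from GENCODE M21 (GRCm38, the assembly of mm10), promoter windows from RefSeq GRCm38.p6. Python 3.11.15 with pandas 2.3.3 and matplotlib 3.10.9 was used.

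All 10 family genes were named. From each other list up to 4 called genes with the largest change over both hairpins were named. Where none was called, the 2 highest expressed were named. Single further genes (Xiap, Bik, Trp63, Foxo3, Hif1a, Stat3, E2f1, Nfkb1, marker genes and genes at 0) were named after their values were seen. Members and lists were chosen with earlier results of these data known.

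Alternatives were pseudocounts of 0.1 and 0.5, no filter or one at a mean of 5 FPKM, scaling by median of ratios, same total and quantiles, no variance trend, a replicate block, knockdown libraries as 1 group, only the 2 groups compared, and leaving out each library.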

Additional observations from a re-analysis of the deposited data

Results flagged for a closer look

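For 5 of the 9 tested genes the effects of the hairpins differed from each other by the direct test of shRNA3 minus shRNA1 (limma on log2(FPKM + 1), Benjamini-Hochberg adjusted). Bak1 differed by -0.45 (adjusted p = 0.00180), with shRNA1 above and shRNA3 below WT in 2 of 2 libraries each. Bbc3 differed by 0.38 (adjusted p = 0.00381), with shRNA1 below and shRNA3 above WT in 2 of 2 libraries each. Bcl2l1 (-0.26, adjusted p = 0.00343) and Bid (-0.28, adjusted p = 0.0105) were lower in both hairpin groups than in WT and lower again with shRNA3. Bax differed by -0.15 (adjusted p = 0.0419). Among all genes 42.5% differed between the hairpins by this test. With 2 libraries in a group, single libraries could not be tested as outliers.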

How the results depend on the processing

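With the 4 knockdown libraries fitted as 1 group, 1513 genes and 2 family genes (Bid and Mcl1) were called over both hairpins, against 5538 and 6 (13.7% of all genes tested, against 50.0%). Without a filter on low values 3 family genes were called with shRNA1 and 5 with shRNA3, against 6 and 8, while the share of all genes called went from 36.0% to 21.9% with shRNA1 and from 55.2% to 37.2% with shRNA3. Leaving out each library in turn gave 3914 to 5029 genes and 4 to 6 family genes over both hairpins, 2604 to 3682 and 3 to 5 with shRNA1, 4830 to 5992 and 4 to 7 with shRNA3, and 3222 to 4592 and 3 to 5 between the hairpins. Signs turned only for genes that had not passed. Over both hairpins Bak1 was at -0.054 and Bbc3 at -0.044 with same-total scaling. On leaving out each library, Bak1 ranged from -0.076 to 0.096, Bbc3 from -0.065 to 0.099 and Bad from -0.26 to 0.021 over both hairpins, Bad from -0.16 to 0.11 with shRNA1, and Bcl2 from -0.043 to 0.095 between the hairpins. Same-total scaling put the guardian sum at 123 FPKM in WT and 104 with shRNA3, and the effector sum at 103 with shRNA3. Of 576 recomputed values of single family genes 500 kept their sign and side of the threshold, 63 lost and 3 gained a call, and 10 changed sign. The cause was not tested.

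Whether libraries with the same replicate number were handled together is not stated. Deviations of same-numbered libraries correlated at 0.01, -0.07 and 0.20 for WT with shRNA1, WT with shRNA3 and shRNA1 with shRNA3. With 2 libraries in a group these values cannot settle it. With the replicate block 5205, 3523, 5797 and 4308 genes and 5, 5, 8 and 4 family genes were called over both hairpins, with shRNA1, with shRNA3 and between the hairpins. The calls it ended were those of Bcl2l11 over both hairpins (adjusted p = 0.0540) and of Bax with shRNA1 (0.0688) and between the hairpins (0.0638), and, among the named genes of other lists, of Apaf1 (0.05004), Casp9 (0.0502) and Dffa (0.0579) over both hairpins.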
